A study of Homo sapiens with 16 samples.

Results

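The blood cell surface antigens described here are 9 genes whose proteins are stained in flow cytometry to tell blood lineages apart: CD33, CD14, ITGAM, CD34, CD38, CD44, GYPB, CD36 and ITGA2B. They were taken by name from a deposited table of read counts over 25221 genes, and each symbol matched 1 row. RNA was sequenced from the 3′ ends of transcripts (QuantSeq) in 16 libraries of human leukaemia cells. Libraries came from MOLM13, a line of acute myeloid leukaemia that carries the MLL-AF9 fusion (passages 8 to 12), and from K562, a line from the blast crisis of chronic myeloid leukaemia that carries BCR-ABL (passages 12 to 18). Each line was given either Ro 08-2750 (Ro), an antagonist of RNA binding by the Musashi protein MSI2, at 20 µM for 4 h, or DMSO as vehicle. The final DMSO content of 0.1% was shared by all groups. There were 4 libraries in each of the 4 groups, numbered as pairs 1 to 4 of a DMSO and a Ro library within a line. Each line is a single established culture line, so the comparison of the lines describes MOLM13 and K562 and not the leukaemias they came from.

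Surface antigens are added and lost as a blood stem cell matures. CD34 and CD38 stage stem and progenitor cells, CD33, CD14 and ITGAM follow the granulocyte and monocyte branch, and glycophorins mark red cells. CD44 and the integrins hold cells to matrix and vessel wall, and CD36 and ITGA2B are found on platelets and their precursors. Changes of such antigens are commonly read as differentiation of leukaemia cells.

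The level of a gene is given in CPM, that is counts scaled to a common library total with TMM factors. Totals ranged from 3143129 counts in the DMSO library of K562 pair 2 to 43571060 in that of K562 pair 1, and 3 counts, taken as the lower limit of detection, corresponded to 0.0670 to 0.872 CPM. A gene was tested where 4 or more of the compared libraries held 10 or more of its counts. Summed marker levels fitted the labels of the lines. A list of 10 MOLM13 markers summed to 656.6 to 1127 CPM in MOLM13 and 49.4 to 100.9 in K562. A list of 10 K562 markers summed to 1655 to 3209 CPM in K562 and 3.84 to 6.99 in MOLM13. The largest parts came from CEBPA (mean of 506.6 CPM in MOLM13) and HBG2 (1620 CPM in K562). Of the MOLM13 markers, CD33 (14.45 and 12.95 CPM in MOLM13 and K562) and LYZ (21.5 and 19.5) did not separate the lines (edgeR adjusted p = 0.542 and 0.30 in DMSO). Each list held 1 gene listed at 0 in every library (HOXA10 and HBE1), and CD33 and ITGAM are in the first and GYPB in the second. Markers of T, B and NK cells, 15 genes, summed to 65.5 to 96.3 CPM in MOLM13, most of it from NCAM1, and to 17.7 to 34.3 in K562.

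In the genome build GRCh38 with GENCODE annotation the 9 genes lie on 8 chromosomes. CD34 lies at chr1:207880972-207911402 on the minus strand. CD38 (chr4:15778275-15853230, plus strand) and GYPB (chr4:143996104-144019345, minus strand) share chromosome 4. CD14 lies at chr5:140631728-140633701 on the minus strand, CD36 at chr7:80369575-80679277 on the plus strand, and CD44 at chr11:35138870-35232402 on the plus strand. ITGAM lies at chr16:31259967-31332892 on the plus strand, ITGA2B at chr17:44372180-44389505 on the minus strand, and CD33 at chr19:51225064-51243860 on the plus strand. Since 3′ reads decide the counts, the last 500 bases of the longest principal transcript of each gene were compared with all other annotated transcripts in windows of 50 bases. For 7 of the 9 genes no window occurred in another gene. For CD38 3.77% of the windows did, and for GYPB 21.3%, and how reads from such windows were counted is not given, so counts of GYPB are uncertain to an extent not known here.

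Of the 9 genes, GYPB and ITGA2B were higher in K562, and CD44, CD38 and ITGAM were higher in MOLM13. Their promoters are of interest because GATA factors drive red cell and megakaryocyte genes, and PU.1 drives myeloid genes. Below are the RefSeq promoter windows (GRCh38.p14, 250 bases before to 50 after the start) of the 2 genes higher in K562, GYPB (chr4:144019331-144019630, minus strand, the first of 2 starts) and ITGA2B (chr17:44389600-44389899, minus strand), and of ITGAM (chr16:31259725-31260024, plus strand), a gene higher in MOLM13 whose window held both motifs. Capitals mark a GATA word, which was AGATAA or AGATAG, or its form with T as first base, TGATAA or TGATAG, or the PU.1 core GAGGAA on either strand, so that a word on the opposite strand appears as its reverse complement.
GYPB: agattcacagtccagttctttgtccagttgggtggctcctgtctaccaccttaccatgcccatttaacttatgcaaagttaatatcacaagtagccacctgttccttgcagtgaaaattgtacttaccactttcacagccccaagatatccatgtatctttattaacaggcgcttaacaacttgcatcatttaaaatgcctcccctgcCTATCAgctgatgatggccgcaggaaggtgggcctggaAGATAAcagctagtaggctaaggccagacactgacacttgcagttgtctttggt
ITGA2B: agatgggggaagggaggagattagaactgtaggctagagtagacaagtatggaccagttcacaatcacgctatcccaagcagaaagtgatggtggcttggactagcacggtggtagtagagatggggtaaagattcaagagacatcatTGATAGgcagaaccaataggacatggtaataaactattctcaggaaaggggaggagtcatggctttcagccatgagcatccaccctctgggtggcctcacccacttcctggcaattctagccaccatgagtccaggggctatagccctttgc
ITGAM: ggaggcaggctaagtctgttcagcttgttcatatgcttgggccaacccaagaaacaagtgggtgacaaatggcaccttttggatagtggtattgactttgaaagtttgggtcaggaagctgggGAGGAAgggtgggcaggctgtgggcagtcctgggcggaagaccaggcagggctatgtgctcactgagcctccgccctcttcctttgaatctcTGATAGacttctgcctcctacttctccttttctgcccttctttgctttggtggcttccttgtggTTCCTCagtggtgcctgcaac

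The GYPB window held GATA words 42 and 4 bases upstream of the start, the ITGA2B window held one 102 bases upstream, and the ITGAM window held one 35 bases upstream beside PU.1 cores 127 bases upstream and 30 bases into the transcript. Neither motif occurred in the windows of CD38 and CD44. The PU.1 core was found in the windows of CD33 (3 matches), CD14 and CD34 (1 match each). CD36 has 6 annotated starts, of which 2 held a GATA word and 4 a PU.1 core. Across 35116 promoters of the same length, 25.0% held a GATA word and 27.9% a PU.1 core, so a match is common in any gene; the 2 motifs were chosen for these lineages.

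Among the myeloid antigens, CD33, a sialic acid binding receptor of the SIGLEC family, was at a similar level in both lines. In MOLM13 it was at 8.67, 11.2, 14.4 and 24.8 CPM in the DMSO libraries of pairs 1 to 4 and at 11.3, 11.6, 13.9 and 19.7 CPM in the Ro libraries. In K562 it was at 15.4, 9.30, 9.05 and 15.6 CPM with DMSO and at 17.7, 9.81, 8.80 and 17.9 CPM with Ro. Pair 4 was the highest in both treatments of MOLM13, pairs 1 and 4 were the highest in both treatments of K562, and all 4 groups overlapped. The fitted difference of K562 from MOLM13 in the DMSO libraries was -0.28 log2 (SE 0.33, n = 4 each, edgeR adjusted p = 0.542), with a 95% interval from -0.98 to 0.43.

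ITGAM, the αM chain of the complement receptor CR3, was near 4.6 CPM in MOLM13. Its DMSO libraries held 4.48, 4.65, 4.66 and 4.58 CPM and its Ro libraries 4.89, 4.80, 5.91 and 3.65 CPM. In K562 the values were 1.68, 3.20, 1.88 and 2.63 CPM with DMSO and 1.21, 1.30, 1.501 and 2.56 CPM with Ro. All 8 MOLM13 libraries lay above all 8 K562 libraries, with the mean of MOLM13 2.36 times that of K562. The difference in the DMSO libraries was -1.10 log2 (SE 0.27, n = 4 each, edgeR adjusted p = 0.00514).

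CD14, the monocyte receptor for lipopolysaccharide, was barely detected. Its counts were 0, 5, 6 and 6 in the DMSO libraries and 1, 3, 2 and 1 in the Ro libraries of MOLM13, and 2, 0, 2 and 2 and then 0, 2, 6 and 8 in K562. No library reached 10 counts, so it was not tested, and no change of it was detectable at this depth.

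CD34, the sialomucin of stem and progenitor cells, was also at the limit of detection. MOLM13 had 2, 4, 2 and 3 counts with DMSO and 0, 1, 0 and 0 with Ro. K562 had 3, 0, 2 and 0 counts with DMSO and 0, 4, 4 and 1 with Ro. The 2 MOLM13 groups did not overlap in CPM, but they rest on 11 and 1 counts in all, and the gene was not tested.

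CD38, an ectoenzyme that consumes NAD, was found in MOLM13 and nearly lacking in K562. MOLM13 had 7.08, 6.69, 8.08 and 15.3 CPM with DMSO and 5.41, 7.97, 5.96 and 9.61 CPM with Ro. In K562 the counts were 18, 1, 13 and 2 with DMSO and 3, 0, 22 and 11 with Ro, that is at most 0.892 CPM. Pair 4 had the highest level in both treatments of MOLM13, and no K562 library came near the lowest MOLM13 library. The mean of MOLM13 over DMSO and Ro libraries was 21.7 times that of K562. The difference in the DMSO libraries was -4.44 log2 (SE 0.40, n = 4 each, edgeR adjusted p = 8.9e-07).

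CD44, the receptor for hyaluronan, had the most even level of the 9 genes in MOLM13. The line held 77.1, 83.2, 88.6 and 83.5 CPM with DMSO and 75.2, 83.4, 87.2 and 81.9 CPM with Ro, a coefficient of variation of 5.51% over 8 libraries. K562 held 3.37, 6.10, 3.64 and 2.28 CPM with DMSO and 2.503, 4.99, 3.61 and 3.64 CPM with Ro. The lines were far apart and the treatments overlapped in both. The difference in the DMSO libraries was -4.50 log2 (SE 0.27, n = 4 each, edgeR adjusted p = 2.9e-08). Over DMSO and Ro libraries the mean of MOLM13 was 21.9 times that of K562.

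**Figure D1:**
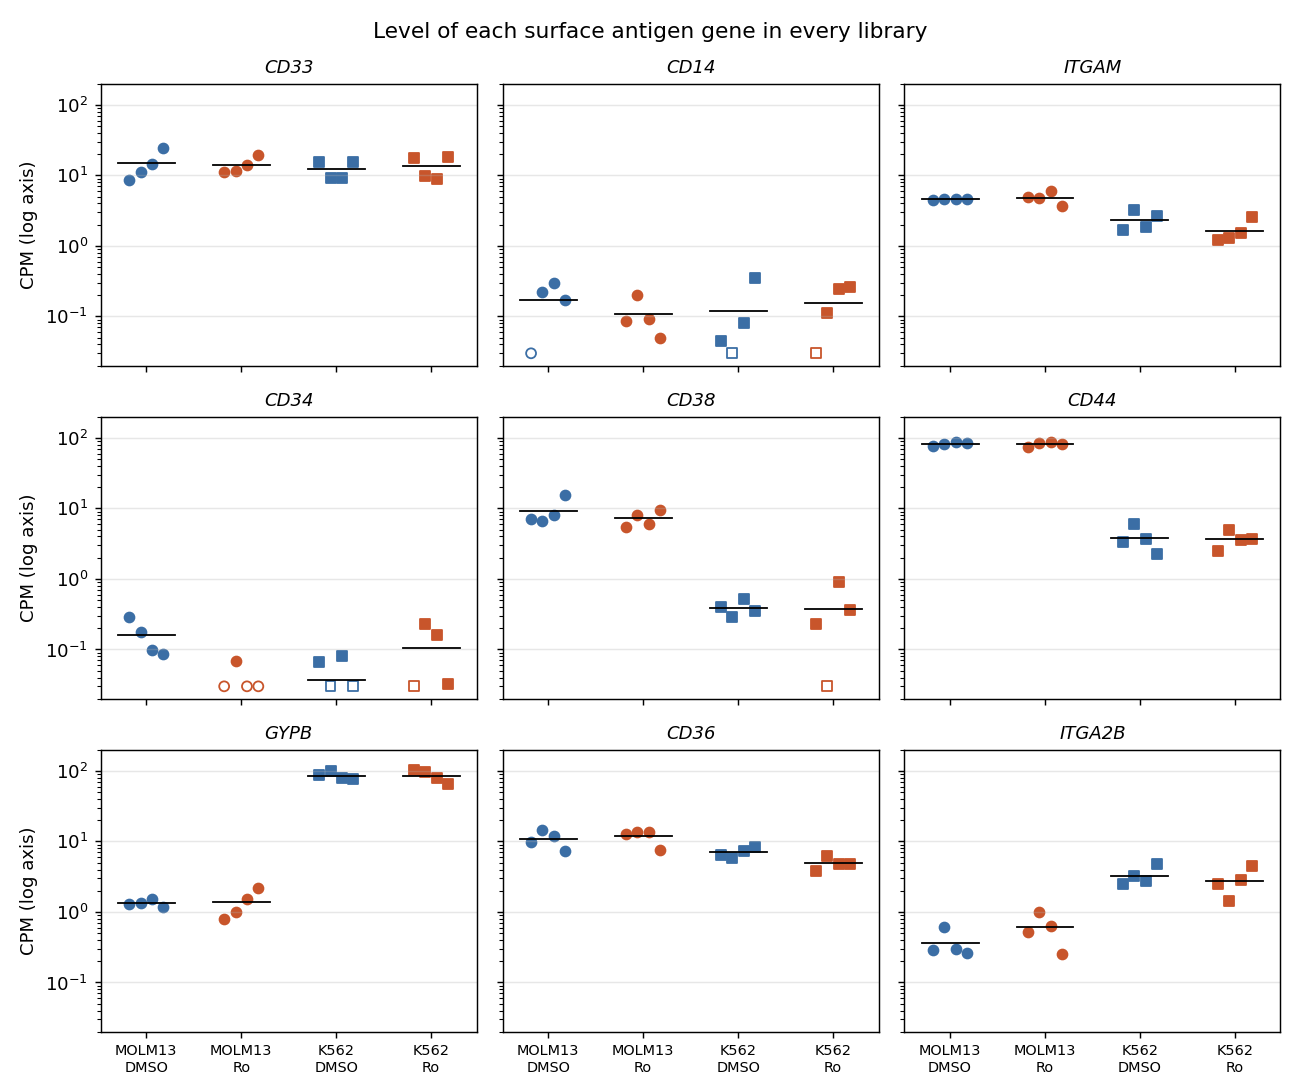
CPM on a log axis of each of the 9 genes in every library, with DMSO in blue and Ro in orange, circles for MOLM13 and squares for K562; points run from pair 1 on the left to pair 4 on the right, the bar is the group mean of 4 libraries, and open symbols at the bottom are libraries at 0 counts. CD44 and CD38 are high in MOLM13 and low in K562, GYPB is the reverse, CD14 and CD34 are near 0 in both lines, and DMSO and Ro overlap in every other panel.

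Of the red cell and platelet antigens, GYPB, the glycophorin that carries the Ss blood group, showed the largest difference between the lines among the genes tested. K562 had 88.0, 99.96, 78.2 and 76.5 CPM with DMSO and 101.8, 95.7, 78.4 and 65.1 CPM with Ro. MOLM13 had 1.30, 1.33, 1.54 and 1.18 CPM with DMSO and 0.786, 1.01, 1.51 and 2.15 CPM with Ro. The difference in the DMSO libraries was 5.99 log2 (SE 0.24, n = 4 each, edgeR adjusted p = 1.7e-09), which is 63.7-fold with a 95% interval from 44.6 to 91.0. The lines did not overlap, and the lowest K562 library was far above the highest MOLM13 library.

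CD36, the scavenger receptor for fatty acids and thrombospondin on monocytes, platelets and red cell precursors, was found in both lines. MOLM13 had 9.97, 14.7, 11.9 and 7.28 CPM with DMSO and 12.8, 13.4, 13.4 and 7.66 CPM with Ro. K562 had 6.50, 5.81, 7.25 and 8.41 CPM with DMSO and 3.87, 6.29, 4.87 and 4.82 CPM with Ro. Pair 4 was the lowest in both treatments of MOLM13, and the DMSO libraries of the 2 lines overlapped through it. The difference in the DMSO libraries was -0.65 log2 (SE 0.26, n = 4 each) and missed the threshold in edgeR (adjusted p = 0.0603) but passed it in DESeq2 (adjusted p = 0.0418). It also passed in edgeR without the DMSO library of MOLM13 pair 4 (-0.82, adjusted p = 0.0119) and without that of K562 pair 4 (-0.74, adjusted p = 0.0394). Among the Ro libraries the difference was -1.25 log2 (SE 0.23, n = 4 each, edgeR adjusted p = 4.6e-04).

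ITGA2B, the αIIb chain of the platelet fibrinogen receptor, was low in K562 and lower in MOLM13. K562 had 2.46, 3.20, 2.76 and 4.73 CPM with DMSO and 2.503, 1.42, 2.80 and 4.42 CPM with Ro, while MOLM13 had 2 to 15 counts, 0.250 to 1.01 CPM. All 8 K562 libraries were above all 8 MOLM13 libraries. The difference in the DMSO libraries was 3.06 log2 (SE 0.38, n = 4 each, edgeR adjusted p = 2.2e-05), 8.32-fold.

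In all, 7 of the 9 genes were tested between the lines. Of these, 2 were higher in K562, where 20.3% of the 15268 genes tested were called higher, and 3 were lower in K562, where 21.1% were called lower. The numbers of the pairs did not join the lines, since same-numbered DMSO libraries of MOLM13 and K562 had deviations correlated at -0.147 to 0.0562. In bulk RNA a lower level in all cells and a smaller share of cells with the gene cannot be told apart.

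**Figure D2:**
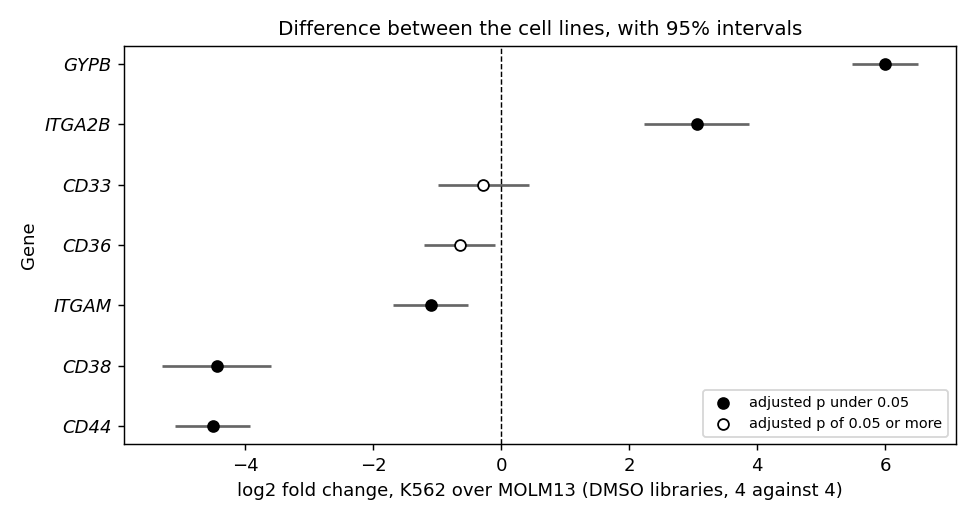
Difference between K562 and MOLM13 in the DMSO libraries for the 7 genes tested, as log2 fold change with its 95% interval; filled points passed an edgeR adjusted p of 0.05. GYPB at 5.99 and ITGA2B at 3.06 lie on the K562 side, CD44, CD38 and ITGAM at -4.50, -4.44 and -1.10 on the MOLM13 side, and CD36 and CD33 did not pass.

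The main comparison of the study was Ro against DMSO within each line. None of the members tested was called with Ro in either line, with or without the pair number as a block. In MOLM13, 6 of the 9 genes were tested, and edgeR called 0 of 15031 genes (0%) when pairs were ignored (unadjusted p under 0.05 in 126 that rose and 49 that fell), while DESeq2 called 1 gene. Within a pair the DMSO and Ro libraries deviated together (correlations of 0.384 to 0.831), and with the block edgeR called 317 genes, 2.11% of those tested. None of the 6 members was among them. In K562, 7 of the 9 were tested, and edgeR called 0 of 15227 genes (0%) in both fits (unadjusted p under 0.05, pairs ignored, in 52 that rose and 135 that fell). DESeq2 with the block called 2 genes.

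CD38 in MOLM13 had the smallest p of the 6 genes. Its change was -0.35 log2 (SE 0.29) without the block and -0.32 (SE 0.14) with it, with a 95% interval from -0.61 to -0.03 (unadjusted p = 0.0341, edgeR adjusted p = 0.244). By pair it was -0.38, 0.25, -0.43 and -0.66 log2, lower in 3 of 4 pairs. Without the DMSO library of pair 4, which held 15.3 CPM, the unblocked change was 0.0014 log2, and without pair 4 the blocked change was -0.15 log2. Without pair 2 it was -0.52 log2 (SE 0.14, edgeR adjusted p = 0.0813).

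CD44 in MOLM13 had the tightest limit on a change with Ro. The change was -0.0044 log2 (SE 0.069) with the block, and its 95% interval ran from 0.903 to 1.10-fold. CD33 changed by -0.034 log2 (0.833 to 1.15-fold), ITGAM by 0.056 (0.833 to 1.30-fold) and CD36 by 0.12 (0.923 to 1.27-fold). GYPB in MOLM13 changed by 0.14 log2, with the widest interval of the 6, from 0.745 to 1.63-fold. By pair GYPB was at -0.66, -0.36, -0.02 and 0.82 log2, lower in 3 of 4 pairs. Without pair 4 its blocked change was -0.26 log2, so its sign rests on that pair. In these 5 genes the edgeR adjusted p with the block was between 0.640 and 0.981.

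In K562, CD36 had the smallest p. It was lower in 3 of 4 pairs, by -0.73, -0.56 and -0.79 log2 in pairs 1, 3 and 4 against 0.11 in pair 2. The fitted change was -0.49 log2 (SE 0.22, unadjusted p = 0.0455, edgeR adjusted p = 1.00) and with the block -0.53 (SE 0.22, unadjusted p = 0.0392, edgeR adjusted p = 0.947), a 0.692-fold level with a 95% interval from 0.491 to 0.977. The DMSO library of pair 2 is the shallowest of the series, with 20 counts of CD36. In pairs 1 and 3 alone the change was -0.67 log2 (SE 0.22, edgeR adjusted p = 0.0612). That fit leaves out pair 2, where CD36 rose, and pair 4, whose DMSO library held 4383241 counts in all. It called 195 genes higher and 223 lower of 13667, against 0 in the edgeR fits of all 4 pairs.

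ITGAM was lower with Ro in all 4 pairs of K562, by -0.43, -1.23, -0.31 and -0.04 log2, and it was the only one of the 7 genes tested that moved the same way in every pair. In K562 4.64% of all genes were lower in all 4 pairs and 6.84% were higher. In MOLM13, where 14.9% of genes were lower and 10.2% higher in all 4 pairs, no member tested was either. The fitted change of ITGAM in K562 with the block was -0.46 log2 (SE 0.28, edgeR adjusted p = 0.947), 0.467 to 1.13-fold. Without pair 2, whose DMSO library held 11 counts of ITGAM, it was -0.29 log2.

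For the other genes tested in K562 no change passed the test, and the intervals allowed changes in either direction. With the block, CD33 was at 0.12 log2 (0.843 to 1.39-fold), CD44 at -0.043 (0.661 to 1.43-fold), GYPB at -0.013 (0.798 to 1.23-fold) and ITGA2B at -0.20 (0.579 to 1.32-fold), or -0.022 without pair 2. CD38, with 0 to 22 counts, was at 0.048 log2 with an interval of 0.422 to 2.53-fold, too wide to speak of a change or of its absence.

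**Figure D3:**
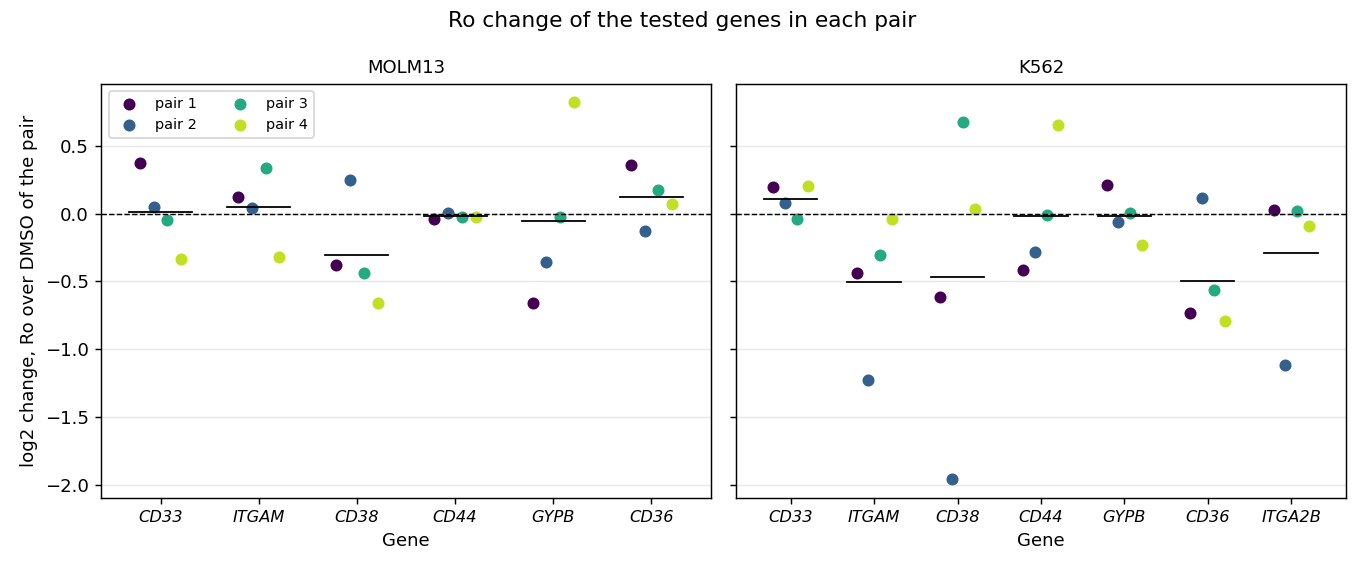
Ro change of each tested gene as log2 of the Ro over the DMSO library of the same pair (prior count of 2), MOLM13 on the left and K562 on the right, coloured by pair, with the mean of the 4 pairs as a bar. In MOLM13 the 4 pairs of CD44 lie within -0.04 to 0.00, whereas CD38 in K562, at 0 to 22 counts, ranges from -1.96 to 0.68; ITGAM in K562 is below 0 in all 4 pairs.

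The Ro change was also compared between the lines in 1 model of 16224 genes, of which 0% was called in edgeR with or without the block (unadjusted p under 0.05 in 41 and 177 genes by direction, pairs ignored), and 3 in DESeq2 with the block. CD36 had the smallest p of the 7 members tested: its change in K562 minus that in MOLM13 was -0.66 log2 with the block (SE 0.23, 95% interval from -1.15 to -0.17, unadjusted p = 0.0127, edgeR adjusted p = 0.766). The remaining 6 had an edgeR adjusted p between 0.766 and 0.963 with the block, so no difference in response between the lines passed the test.

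Over all genes tested in MOLM13, more differed between pairs than between treatments (2.11% with the block). When the pair number was tested as a term, a test added after the values were seen, 58.7% of the 15031 genes differed between the MOLM13 pairs and 0.131% of the 15227 genes between the K562 pairs. Of the 6 members tested in MOLM13, 3 differed between pairs, a share no larger than the 58.7% of all genes. They were CD33 (edgeR adjusted p = 8.6e-06), CD36 (1.1e-04) and CD38 (5.3e-04). ITGAM, CD44 and GYPB did not pass (edgeR adjusted p = 0.461 to 0.495). In K562 none of the 7 passed in edgeR (adjusted p = 0.252 for CD33, and higher for the others), and CD33 passed in DESeq2 (adjusted p = 0.0118). Pair 4 decided the MOLM13 result: without it none of the 3 genes passed (edgeR adjusted p = 0.0824 for CD33, 0.446 for CD36 and 0.782 for CD38). An uncharacterised transcript, LOC100507412, took 22.3% and 24.3% of all counts in the 2 libraries of MOLM13 pair 1 and 4.11% and 6.29% in those of pair 4, and its part in these differences was not tested.

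**Figure D4:**
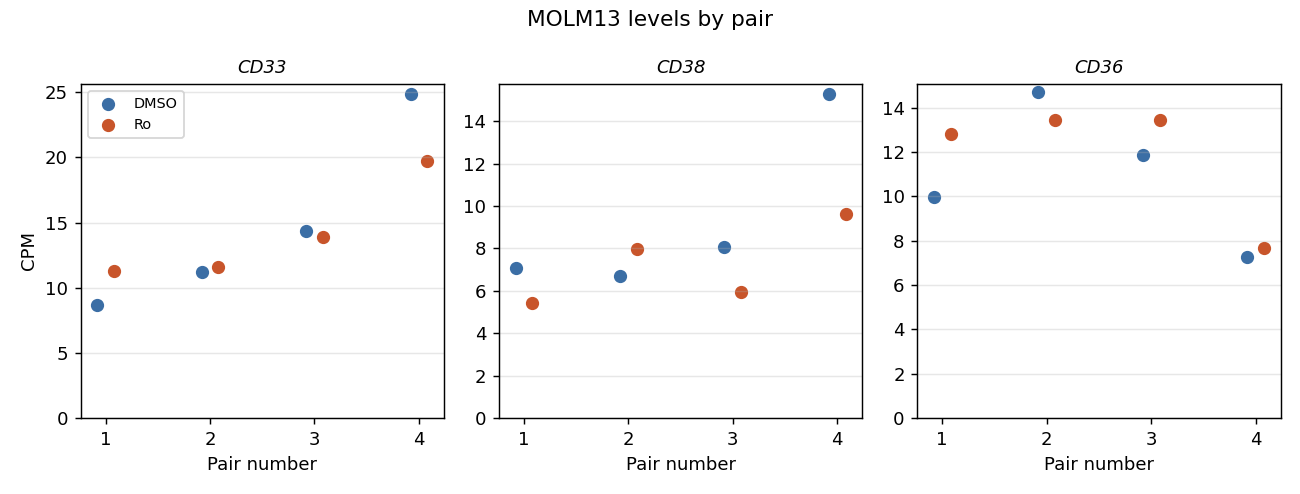
CPM of CD33, CD38 and CD36 in MOLM13 by pair number, DMSO in blue and Ro in orange, from 0. In pair 4 CD33 (24.8 and 19.7 CPM) and CD38 (15.3 and 9.61 CPM) are at their highest and CD36 (7.28 and 7.66 CPM) at its lowest in both treatments.

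Across the 8 MOLM13 libraries log2 CPM of CD33 and CD38 were correlated at r = 0.80, CD38 and CD36 at -0.81, and CD33 and CD36 at -0.70; in K562, ITGAM and ITGA2B were at 0.75. These are descriptions over 8 libraries that come in pairs and differ in depth. The genes most like each member over the 8 libraries of a line, among 11493 to 11724 candidates, were as follows. In MOLM13 they were ADGRE5 (r = 0.995) and METTL7A for CD33, EEF1D (0.993) and SPATA24 for CD38, NHSL2 (0.987) and CD86 for CD36, AKAP12 (0.988) and FLNA for CD44, RMDN2 and RAVER2 for ITGAM, and ISCA1 and MARCH6 for GYPB. In K562 they were MSRB1 (0.987) and RPL12 for CD33, CDKL2 (0.984) and OCA2 for CD36, FBF1 (0.992) and the row listed as AL358113.1 for CD44, PSMC4 (0.983) and TIMM13 for GYPB, TMEM154 (0.983) and ACACB for ITGA2B, ZNF782 and SPTAN1 for ITGAM, and ZNF445 and FANCF for CD38.

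Other antigens of the same lineages were looked at in lists that do not hold the 9 genes. The counts of these lists stand against the 20.3% of all genes called higher and the 21.1% called lower in K562. Among red cell antigens, 14 of 15 tested were higher in K562, with a median difference of 3.07 log2 against 0.0047 over all genes. GYPC, which anchors the membrane skeleton, was at 30.5 CPM in MOLM13 and 284.4 in K562, RHAG at 0.762 and 241.4, and BSG at 44.0 and 61.1 without passing. Among myeloid antigens, 8 of 16 were lower and 2 higher in K562 (median -0.71 log2). ITGB2, the partner chain of ITGAM, was at 574.3 CPM in MOLM13 and 5.00 in K562 and SIRPA at 63.5 and 0.783, whereas FCGR2A was higher in K562 (12.5 and 24.8) and CD68 was at 22.5 and 21.5. The list of stem and progenitor antigens, which also holds antigens not confined to those cells, had 6 of 14 lower and 1 higher in K562. The 1 higher was TFRC, the transferrin receptor, at 150.2 and 415.9 CPM, and PTPRC was at 146.8 and 72.0.

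Of the megakaryocyte and platelet antigens, 3 of 8 were higher and 1 lower in K562, with CD63 at 312.2 and 673.1 CPM, PECAM1 at 69.6 and 8.92, and ITGA2 at 14.5 and 19.5 without passing. The adhesion partners, which include those that bind CD44 to the cell skeleton, had 6 of 13 lower and 2 higher, with MSN at 1340 and 803.7 CPM and EZR at 147.7 and 208.6. The SIGLEC relatives of CD33 and ectoenzymes other than CD38 were low, 1 of 8 lower and 2 higher in K562. With the pair number as a block, 1 was lower and 0 were higher. BST1, which shares the NAD chemistry of CD38, was at 3.78 and 0.83 CPM, NT5E at 3.00 and 2.20, and MAG at 0.599 and 1.82. Lymphoid markers had 3 of 7 lower and 2 higher, with NCAM1 at 59.2 and 6.45 CPM, NKG7 at 6.96 and 0.0248, and KLRD1 at 6.74 and 5.16.

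With Ro, 2 genes of these lists passed, both in MOLM13 with the block and neither without it (edgeR adjusted p = 1.00). CXCR4, the chemokine receptor that holds leukaemia cells in the marrow, fell by 0.41 on the log2 scale (SE 0.077, edgeR adjusted p = 0.00624) and was lower in all 4 pairs. HMMR, whose protein also binds hyaluronan but is not an antigen of the same kind as CD44, fell by 0.40 on the log2 scale (SE 0.082, edgeR adjusted p = 0.0103). It was also lower in all 4 pairs. Both lost the call without pair 3 (edgeR adjusted p = 0.0988 and 0.183), and HMMR also without pair 1 (0.0558). They made up 1 of 14 genes of the stem and progenitor list and 1 of 13 of the adhesion list tested in MOLM13, against 2.11% of all genes tested. In the list of MOLM13 markers 1 of 9 genes tested passed in the same way, CEBPA, a transcription factor of myeloid cells, which was named after its values were seen. It fell by 0.29 on the log2 scale (SE 0.066, edgeR adjusted p = 0.0226), was lower in all 4 pairs, and lost the call without pair 1 or pair 3 (edgeR adjusted p = 0.116 and 0.269). None of the genes in any of the lists passed in the edgeR fits of all 4 pairs of K562 or in the edgeR comparison of responses.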

How the data were processed

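RNA of 16 libraries (MOLM13 and K562, DMSO or Ro, 4 each) had been sequenced from transcript 3′ ends. The authors deposited raw read counts per gene; the submitters' notes name hg38, Trim Galore, STAR 2.5.3a and SAMtools 1.5, and the counting program and annotation are not given in the sources used here. Of the 143 genes of the lists that matched, 12, HBE1 and ITGA5 among them, were listed at 0 in all 16 libraries, as were 5180 of all 25221 genes, and the reason was not tested. The 3′ counts do not grow with transcript length.

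Genes for which 4 or more of the libraries held 10 or more counts were tested with edgeR 4.0.16 (TMM, quasi-likelihood test, Benjamini-Hochberg over all genes, threshold 0.05), with DESeq2 1.42.0 as an alternative, in R 4.3.3. Fits used the line or lines compared, without the pair as a block in the main fit. Same-numbered DMSO and Ro libraries deviated together in each pair (r = 0.384 to 0.831 in MOLM13, 0.11 to 0.417 in K562), so the blocked fit is given beside it. What a pair shared is not stated, nor whether libraries came from separate cultures, so p-values measure the spread between these libraries. Libraries of a group differed by more than sampling noise (chi-square per degree of freedom of at least 10.1). Limits of 3 counts cover counting error only. Intervals are 95% t intervals of the fit. Scripts were run on simulated data as a check of the code, not of the error rates in these libraries.

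The members and lists were chosen with earlier results of these data known. Named genes are the members, list genes called with Ro (marker lists of the lines aside), the 2 highest of each list in each line, and the 2 nearest genes by correlation among genes with 50 or more counts in 4 or more of the 8 libraries of a line. Of 147 listed genes 4 were not matched. Other settings are in the closing section.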

Additional observations from a re-analysis of the deposited data

Results flagged for a closer look

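The 36 groups of 4 libraries (9 genes in 4 groups) were examined for a library far from the other 3, by the gap to its neighbour over the range, and 4 exceeded Dixon's 95% critical value; chance flags about 1 in 20 groups. CD38 was at 15.3 CPM in the DMSO library of MOLM13 pair 4, against 6.69 to 8.08 in the others. CD36 was at 7.66 CPM in the Ro library of MOLM13 pair 4, against 12.8 to 13.4. ITGA2B was at 0.62 CPM (14 counts) in the DMSO library of MOLM13 pair 2, against 0.258 to 0.298. CD34 was at 0.0676 CPM in the Ro library of MOLM13 pair 2, which is 1 count against 0 in the other 3.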

How the results depend on the processing

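No member changed its side of the threshold in a Ro comparison under any alternative run, and 5 of the 7 genes tested between the lines kept their call. Genes called with Ro in MOLM13 went from 0 to 141 higher and 176 lower with the pair as a block (27 to 155 and 22 to 203 leaving out one pair each, least without pair 3), to 1 higher in DESeq2, and to 69 higher and 197 lower in DESeq2 with the block. In K562 they went to 2 higher in DESeq2 with the block and to 195 higher and 223 lower with the block in pairs 1 and 3 alone, and for the comparison of responses to 2 higher and 1 lower in DESeq2 with the block. Genes that differed between MOLM13 pairs went from 8828 to 3297 without pair 4 (3297 to 8730 leaving out each pair), and between K562 pairs from 20 to 490 in DESeq2, 89 with no filter on low counts, 0 with a minimum of 50 counts and 0 leaving out any one pair; these settings of the pair test were chosen after seeing the data. Directions of members that were not called turned as follows (log2). In K562 with the replicate block CD38 was at 0.048, CD44 at -0.043 and GYPB at -0.013; GYPB was at -0.0062 in DESeq2, -0.0069 with DESeq2 size factors and -0.024 with a minimum of 50 counts; in DESeq2 with the block CD44 was at -0.046 and GYPB at -0.021; in pairs 1 and 3 alone CD44 was at -0.21 and ITGA2B at 0.0077. CD44 in MOLM13 was at 0.011 with a minimum of 50 counts, and its difference in response was -0.041 with the block and -0.030 in DESeq2 with it. Leaving out a library or pair gave, in MOLM13, -0.26 to 0.31 for CD33, -0.071 to 0.21 for ITGAM, -0.52 to 0.0014 for CD38, -0.036 to 0.021 for CD44, -0.26 to 0.31 for GYPB and -0.042 to 0.31 for CD36; in K562, -0.051 to 0.29 for CD33, -0.66 to -0.21 for ITGAM (which did not turn), -0.12 to 0.25 for CD38, -0.23 to 0.21 for CD44, -0.11 to 0.10 for GYPB and -0.48 to 0.086 for ITGA2B; for the difference in response, -0.18 to 0.41 for CD33, -0.57 to 0.77 for CD38, -0.19 to 0.22 for CD44 and -0.29 to 0.26 for GYPB; and between the lines -0.46 to 0.097 for CD33, above 0 without the DMSO library of MOLM13 pair 4. The cause was not tested. CD14 and CD34 had at most 8 counts in any library, deep ones included, and were not tested.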
